A study of Homo sapiens with 6 samples.

Results

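Transcripts of HMMR and of the genes that make, cut and bind hyaluronan were described in the OVCA433 line, derived from a high-grade serous cancer of the ovary, with and without added versican. The genes were chosen by name: HMMR, the synthases HAS1, HAS2 and HAS3, the hyaluronidases HYAL1, HYAL2 and HYAL3, the hyaluronan-degrading protein CEMIP, and the hyaluronan-binding proteins HABP4 and LAYN. All probe sets annotated with 1 of these symbols alone were taken, and 8 of the 10 genes had at least 1, with 17 probe sets among the 54675 of the array. HAS1 and HYAL1 had none and were not analysed here. Of the 8 genes, 4 were bright enough to be tested (HMMR, HABP4, LAYN and HYAL2) among 9887 tested genes, and 4 were too dim to judge (HAS2, HAS3, HYAL3 and CEMIP).

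Human Genome U133 Plus 2.0 arrays were hybridised with RNA of 3 control dishes and 3 versican dishes. Cells were grown in RPMI1640 with 10% fetal bovine serum. At 24 hours after seeding, controls received fresh medium without versican and treated dishes received fresh medium containing exogenous versican, a chondroitin sulfate proteoglycan that binds hyaluronan. RNA was taken 48 hours later in both groups. The sources used here do not give the dose or form of versican, and the treatment protocol also speaks of transfection, which the sample labels do not. All dishes were of 1 cell line. Samples within a group are described as independent, with no word on whether days or cultures differed, so p-values measure only the spread of these samples, some of which may be technical.

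Hyaluronan is a long unsulfated sugar polymer of the matrix. HAS enzymes at the plasma membrane build it from UDP-glucuronic acid and UDP-N-acetylglucosamine, and hyaluronidases and CEMIP-type proteins cut it. HMMR, also called RHAMM or CD168, binds hyaluronan when it is outside the cell. Inside the cell it associates with microtubules and the mitotic spindle, and its transcript is highest around mitosis.

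Cell identity was checked on markers. All 7 epithelial ovarian markers, such as EPCAM, KRT7 and MUC16, were bright enough to be tested, and 1 of them, PAX8, was called higher with versican. None of 6 fibroblast, 3 endothelial and 3 mesothelial markers reached that level. The mesothelial list included WT1, with means of 8.88 in control and 27.9 in versican arrays. WT1 is not particular to mesothelium, so its dimness was not counted toward the identity of the cells. These lists bear on an epithelial identity only. The serous origin of the line, and how the low WT1 signal relates to it, was not tested. Of 5 leukocyte markers, LAPTM5 did (log2 0.31 higher, limma adjusted p = 0.0032). The summed signal of those 5 was 862 to 910 in control and 1050 to 1110 in versican arrays. Most of that sum was LAPTM5, which averaged 786 in control and 977 in versican arrays. The part of these signals in the results was not tested.

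Of the 4 tested genes, HMMR alone rose. It was 2.74-fold higher with versican, while HABP4 fell 1.39-fold and LAYN 1.15-fold. HYAL2 was 1.14-fold lower, at a p close to the threshold. These are changes on a log2(signal + 16) scale, and a gene was called at a limma adjusted p under 0.05. All 4 tested genes were called, 1 higher and 3 lower. Among all tested genes 41.6% were called, 21.0% higher and 20.6% lower, with a median log2 fold change of 0.01. In none of the 4 genes did the groups overlap, which was also true of 52.2% of all tested genes. Each of the 4 lay above the brightness limit, a mean signal of 201, in both groups, so none was tested only because of the group in which it was high.

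The promoter of HMMR is shown here because mitotic genes often carry a cell cycle homology region (CHR, TTTGAA) and CCAAT boxes just before their start, and that of HABP4 because its transcript went the opposite way. RefSeq's table (build GRCh38.p14) held promoters of 8 of the 10 genes. The 250 bases before the start of HMMR are chr5:163460382-163460631 on the plus strand, and those of HABP4 are chr9:96449919-96450168 on the plus strand. Both are written 5′ to 3′, and capitals mark each TTTGAA and CCAAT on either strand.
HMMR: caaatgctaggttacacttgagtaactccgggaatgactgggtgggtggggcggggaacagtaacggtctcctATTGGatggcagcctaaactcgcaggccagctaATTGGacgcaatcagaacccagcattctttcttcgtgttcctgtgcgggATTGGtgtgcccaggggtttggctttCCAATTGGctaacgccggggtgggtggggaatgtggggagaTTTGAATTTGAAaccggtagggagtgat
HABP4: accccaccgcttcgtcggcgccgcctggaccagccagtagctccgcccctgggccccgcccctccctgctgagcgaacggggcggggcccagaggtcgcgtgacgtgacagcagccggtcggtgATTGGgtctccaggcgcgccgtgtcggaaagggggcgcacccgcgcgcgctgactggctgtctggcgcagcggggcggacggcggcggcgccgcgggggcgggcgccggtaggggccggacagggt
The HMMR window held 2 adjacent TTTGAA motifs, whose first bases lie 28 and 22 bases before the start, and 5 CCAAT motifs. The 2 CCAAT motifs nearest the start overlap on opposite strands. The HABP4 window held 1 CCAAT, on the minus strand, and no TTTGAA. Neither window held the E2F-type letters TTTGGCG or TTTCCCG.

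Over all 35116 RefSeq promoter windows of that length, 13.3% held TTTGAA, 32.0% held CCAAT and 5.14% held 1 of the E2F-type motifs. In the 57 windows of 44 matched G2/M genes those shares were 47.4%, 64.9% and 8.77%. In the 43 windows of 32 matched S phase genes they were 9.3%, 65.1% and 37.2%. At least 2 of each of TTTGAA and CCAAT, as in HMMR, were found in 44 of the 35116 windows (0.125%) and in 6 of the 57 G2/M windows (10.5%), a count made after HMMR's window had been seen. Of the other promoters of the listed hyaluronan genes, that of HAS1 held 1 TTTGAA, and those of HYAL1, HYAL2, HYAL3, CEMIP and HAS3 held none of the motifs. Such matches are letters in a window and were not tested as sites.

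HMMR is read by 2 probe sets. The brighter gave signals of 843, 933 and 1053 in control arrays and 2714, 2708 and 2390 in versican arrays. Its mean was 943 ± 105 and 2604 ± 185 (SD, n = 3 each), and the lowest versican array was above every control array. The limma fit gave a log2 difference of 1.45 (SE 0.09, adjusted p = 1.1e-06), higher in 3 of 3 versican arrays. The second gave 507, 446 and 482 in control and 1199, 1176 and 1235 in versican arrays, again without overlap. With each probe set fitted separately it rose 2.47-fold (log2 1.30, SE 0.08, limma adjusted p = 9.2e-07). The log2 distance between both HMMR probe sets differed between the groups by 0.15, within its spread (exact permutation test, two-sided, p = 0.50). In a bulk sample, more cells that express HMMR and more HMMR RNA per cell cannot be told apart.

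HMMR's rise was the 17th largest of the 9887 tested genes. The genes whose profiles over the 6 arrays were nearest to it, by the root mean square difference of log2 values after subtracting each gene's control mean, were KIFC1, CD44, CA2, PHF19, CXCL1 and CPED1. KIFC1, a minus-end kinesin of the spindle, was nearest (difference 0.08, 2.69-fold higher). CD44, the main surface receptor for hyaluronan, was next (0.10, 2.63-fold). Within an array the log2 distance between HMMR and CD44 averaged -2.16 ± 0.14 without and -2.10 ± 0.08 with versican (SD, n = 3 each), a description of the likeness by which CD44 was picked. CA2, a carbonic anhydrase, PHF19, a polycomb-associated protein, and CXCL1, a neutrophil-attracting chemokine, were 2.83-fold, 2.72-fold and 2.91-fold higher. CPED1 was 2.52-fold higher. Further probe sets rose less for CPED1 (log2 0.53 against 1.33) and for 1 of 3 of PHF19 (0.89 against 1.45). CD44 has 13 probe sets, of which only the brightest was compared here.

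**Figure D1:**
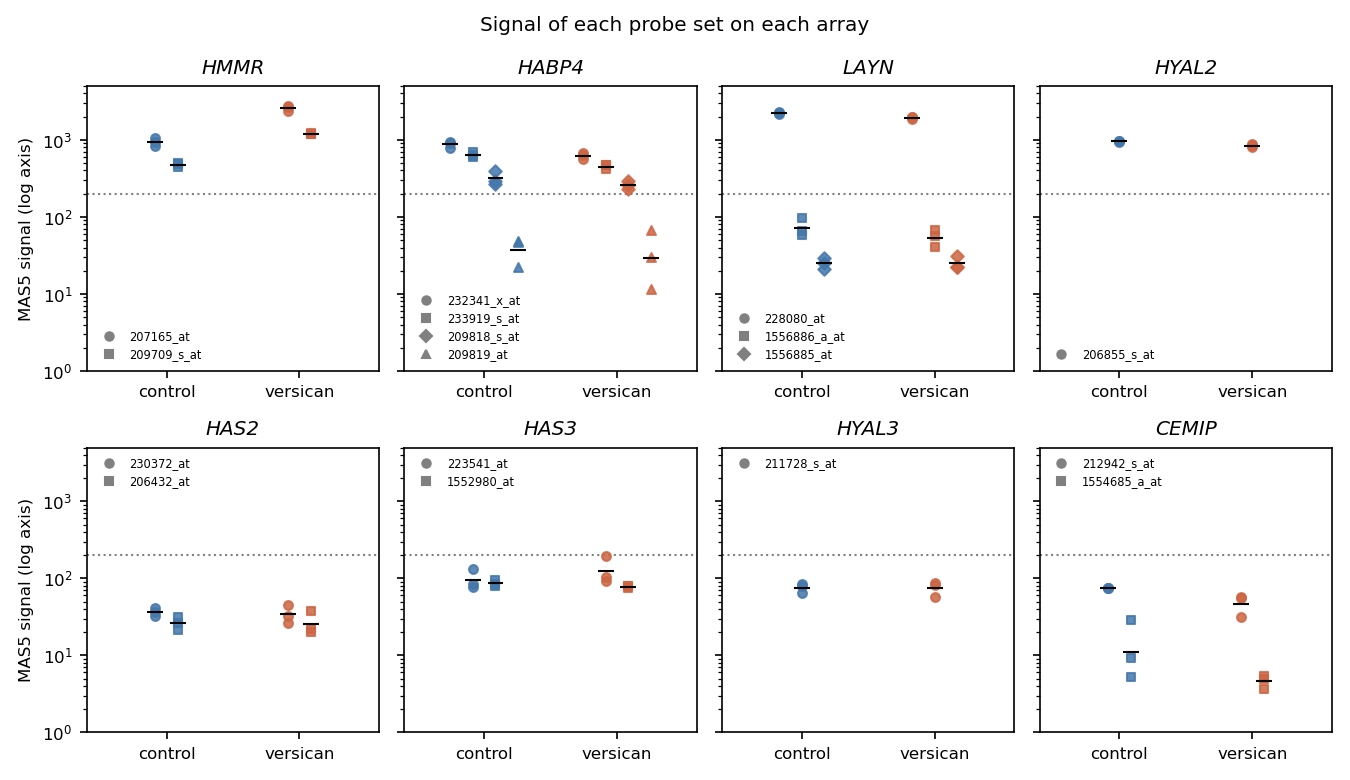
MAS5 signal (log axis) of every probe set of the 8 measured genes on each of the 3 control (blue) and 3 versican (orange) arrays, with marker shapes for probe sets and bars for geometric means. The dotted line marks the brightness limit of 201. Both HMMR probe sets separate the groups upward, whereas HAS2, HAS3, HYAL3 and CEMIP lie below the line on every array.

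Because HMMR is also a spindle gene, its change was set beside genes of the cell cycle. Of 53 genes that mark G2 and mitosis (HMMR left out), 52 rose and none fell; their median was 1.80-fold (log2 0.84) and a range of 0.22 to 1.33 on the log2 scale. The 4 with the smallest p were CENPF, CENPE, BIRC5 and UBE2C, with rises of 2.21-fold, 2.35-fold, 2.09-fold and 2.10-fold. Of 41 S phase genes 36 rose and none fell; their median was 1.73-fold. There the smallest p were those of DTL, a subunit of a replication-coupled ubiquitin ligase (2.12-fold), the ribonucleotide reductase subunits RRM2 (1.89-fold) and RRM1 (1.67-fold), and MCM2 of the replicative helicase (1.89-fold). Among all tested genes 21.0% rose. Genes not called were CBX5 of the first list and SLBP, TIPIN, CASP8AP2, RPA2 and WDR76 of the second, named after their values were seen. WDR76, with means of 185 in control and 246 in versican arrays, passed the brightness limit of 201 only through the latter. The part that a change in the share of dividing cells had in the HMMR difference was not tested.

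None of the 53 G2/M or 41 S phase genes rose as much as HMMR's brighter probe set. The nearest were KIF20B in the first list and CLSPN in the second, 2.51-fold and 2.54-fold, named after their values were seen. Each was above HMMR's second probe set. CLSPN had a control mean of 169, below the brightness limit of 201, and passed that limit only through its versican arrays (mean 452). The log2 distance of HMMR from the median of the G2/M genes was -0.76, -0.59 and -0.50 in control arrays and 0.05, 0.01 and -0.11 in versican arrays. It was higher in every versican array than in any control array, by 0.60 on the log2 scale, 1.51-fold (two-sided exact permutation p = 0.10, the lowest value that 3 arrays a group can reach). A ratio within an array shows unequal change only.

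Transcripts of proteins that work with HMMR on the spindle rose in part. Of 10 such genes, 8 rose, none fell and 2 were not called, with a median of 1.64-fold, where 21.0% of all tested genes rose. TPX2, AURKA and KIF11 are also among the 53 G2/M genes, and 5 of the other 7 rose. The smallest p were those of TPX2, the microtubule nucleation factor that activates Aurora A (2.02-fold), FAM83D, a binding partner of HMMR at the spindle (1.97-fold), AURKA, Aurora A itself (2.11-fold), and KIF11, a spindle motor (2.15-fold). BRCA1 and its partner BARD1, whose ubiquitin ligase acts on HMMR, rose 1.75-fold and 1.54-fold. The control mean of BRCA1, 201, lay at the brightness limit, and its versican mean was 362. NUMA1, which anchors the spindle poles, stood at -0.07 on the log2 scale (SE 0.06, limma adjusted p = 0.37). NEDD1, which recruits gamma-tubulin, had 0.13 (SE 0.07, limma adjusted p = 0.14), and neither was called.

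**Figure D2:**
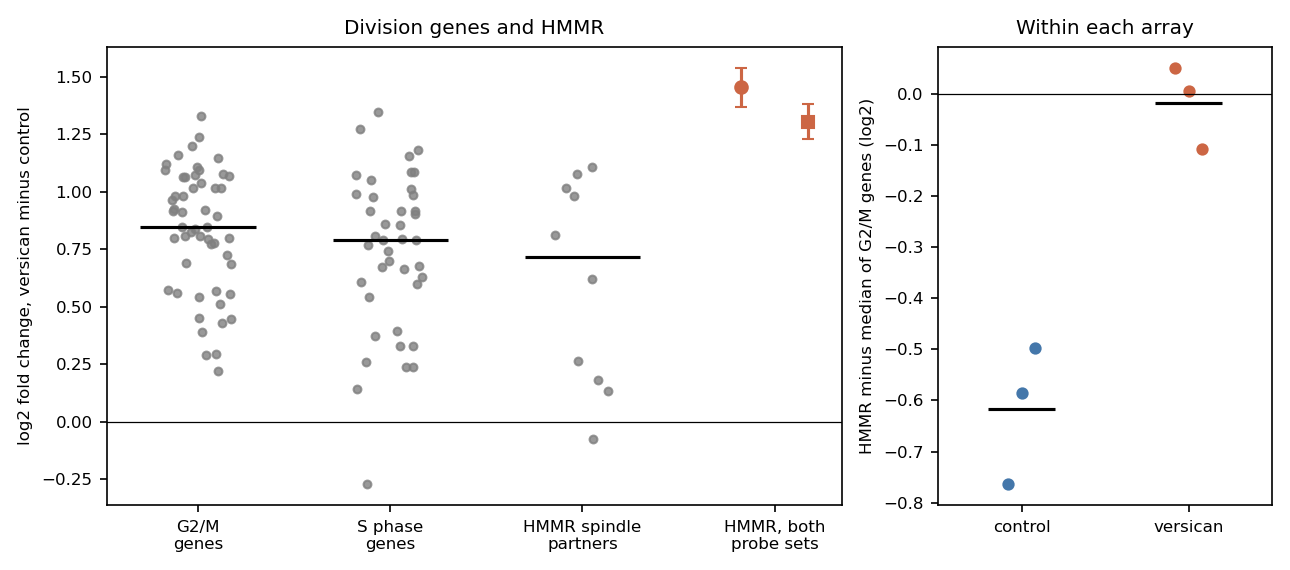
Left, log2 fold change (versican minus control) of each tested G2/M gene, S phase gene and HMMR spindle partner (grey points, bars at medians) and of both HMMR probe sets (orange, with SE). Right, log2 distance of HMMR from the G2/M median on each array, with bars at group means: the 3 versican arrays lie between -0.11 and 0.05, all above the control arrays.

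The synthases were too dim to judge. HAS2, which makes long hyaluronan chains, gave 41.7, 37.1 and 32.1 in control and 32.9, 45.1 and 26.4 in versican arrays on its brighter probe set, and its other probe set gave 20.4 to 37.9 over all 6 arrays. HAS3 gave 131, 78.0 and 84.3 in control and 92.1, 105 and 195 in versican arrays on the brighter probe set, whose spread in the versican group rests on the third array. Its second probe set gave 78.7 to 95.9 in control and 74.6 to 79.8 in versican arrays. The groups overlapped on all 4 probe sets, and the HAS3 probe sets differed in sign (log2 0.33 and -0.12). For scale, 20 genes of other tissues, such as insulin, lens and sperm genes, had group means of 2.63 to 192, with list medians of 18.8 in control and 19.8 in versican arrays. The top of that range is SFTPC alone, and the next highest group mean was 95.5, of MYL2. HAS3 was above all of them but SFTPC in both groups, whereas 6 of the 20 were above HAS2 in control and 4 in versican arrays. With no brightness limit neither synthase was called (limma adjusted p = 0.90 for HAS2 and 0.53 for HAS3), which does not show that their levels were equal. A further probe set shared by HAS3 and UTP4 gave 3.68 to 26.1.

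Transcripts of enzymes of UDP-sugar metabolism, not all of which supply the synthases, were bright where measured. Of 8 listed genes, GFPT2 and PGM3 were not analysed here. Of the 6 measured, 2 rose, 1 fell and 3 (UGP2, UGDH and UXS1) were not called, with a median log2 fold change of 0.06. Over all tested genes 21.0% rose and 20.6% fell, so counts this small say little about the list. GFPT1, the rate-limiting enzyme of the hexosamine pathway, fell 1.30-fold from 5735 ± 206 to 4414 ± 167 (SD, n = 3 each; limma adjusted p = 0.00025). All 4 of its probe sets fell, by 0.38 to 0.56 on the log2 scale. GNPNAT1 and UAP1, later enzymes of the same pathway, rose 1.24-fold and 1.11-fold (limma adjusted p = 0.012 and 0.025). UGDH, which makes UDP-glucuronic acid, stood at -0.02 on the log2 scale (SE 0.09, limma adjusted p = 0.89). Genes of the 3 measured steps of the hexosamine branch therefore moved in both directions.

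Of the hyaluronidases, only HYAL2 could be tested. HYAL2, a GPI-anchored enzyme that cuts long hyaluronan at the cell surface, gave 976, 937 and 967 in control and 875, 850 and 801 in versican arrays on its single probe set. The versican arrays were lower without overlap, but by little (log2 -0.19, SE 0.07, limma adjusted p = 0.045). That call was lost when any 1 of the 6 arrays was left out (adjusted p = 0.062 to 0.15), with the replicate number as a block (0.072), with no brightness limit (0.065), with each probe set fitted separately (0.063), after cyclic loess (0.051) and after median centring (0.27). HYAL3, a weak hyaluronidase whose gene lies beside HYAL1 and HYAL2, was too dim: it gave 63.7, 84.8 and 79.9 in control and 81.0, 58.1 and 88.3 in versican arrays, with overlap.

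CEMIP, which binds hyaluronan and promotes its breakdown, was also too dim to judge. It gave 76.1, 75.4 and 75.1 in control and 56.9, 55.9 and 31.4 in versican arrays on the brighter probe set. These groups did not overlap, yet all 6 values lay far below the brightness limit, and with no limit CEMIP was not called (log2 -0.54, limma adjusted p = 0.19). Its second probe set gave 3.63 to 28.6 and overlapped.

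Of 6 other listed genes of hyaluronan breakdown, 5 were measured and 3 tested, of which 1 fell and none rose (median log2 fold change -0.14). For comparison, 20.6% of all tested genes fell and 21.0% rose. CEMIP2, a transmembrane relative of CEMIP described as a cell-surface hyaluronidase, fell 1.36-fold from 1292 ± 24 to 948 ± 92 (SD, n = 3 each; log2 -0.45, SE 0.08, limma adjusted p = 0.0012). The lysosomal enzymes HEXA and GUSB, which trim hyaluronan fragments, had log2 fold changes of -0.14 and -0.01 and were not called (limma adjusted p = 0.054 and 0.84). HYAL4 and the sperm hyaluronidase SPAM1 were too dim, with group means of 22.1 to 28.4.

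HABP4, an intracellular protein that binds hyaluronan and RNA, has 4 probe sets. The brightest gave 786, 930 and 908 in control and 564, 674 and 634 in versican arrays, without overlap (log2 -0.48, SE 0.09, limma adjusted p = 0.0026). The next gave 594, 690 and 645 in control and 418, 465 and 466 in versican arrays and fell by 0.50 on the log2 scale (limma adjusted p = 0.0021 with each probe set fitted separately). The third gave 399, 290 and 270 in control and 263, 293 and 230 in versican arrays. There the groups overlapped and no call was made (log2 -0.26, SE 0.16, limma adjusted p = 0.25). The fourth was dim, between 11.7 and 67.6. Thus both bright probe sets fell by a similar size, and the dimmer ones did not separate the groups. Both called probe sets are of the classes (_x_at and _s_at) that can read related transcripts, and when those classes were left out HABP4 was not tested.

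LAYN, layilin, is a transmembrane lectin-type receptor for hyaluronan that binds the cytoskeletal proteins talin, radixin and merlin. Its bright probe set gave 2216, 2164 and 2309 in control and 1974, 1961 and 1862 in versican arrays. Each versican array was below each control array, and the difference was small (log2 -0.20, SE 0.05, limma adjusted p = 0.011). LAYN's other probe sets were dim, at 40.4 to 96.4 and 20.9 to 30.9 over all 6 arrays, and their groups overlapped. The call was lost when the 3 probe sets were averaged (adjusted p = 0.29) and after median centring (0.19). The list held 6 genes: those of talin, radixin and merlin, those of ezrin and moesin, listed beside radixin, and 1 lectin relative (CHODL, too dim). Of these, 1 rose, 1 fell and 3 were not called, with a median log2 fold change of 0.09. These counts are near the shares over all tested genes, 21.0% higher and 20.6% lower. Radixin, RDX, fell 1.18-fold (limma adjusted p = 0.0034), and ezrin, EZR, rose 1.13-fold (limma adjusted p = 0.0094), with 1 further probe set of RDX and 2 of EZR not called. Merlin, NF2, stood at 0.19 on the log2 scale (SE 0.09, limma adjusted p = 0.11) and moesin, MSN, at 0.09 (SE 0.05, limma adjusted p = 0.16). Talin, TLN1, had 0.00 (SE 0.11, limma adjusted p = 0.98).

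HABP4 fell more than LAYN and HYAL2 did, and the latter pair had log2 fold changes close to each other. HABP4's nearest genes by the profile measure used for HMMR were SHROOM3, TKT and TAPT1-AS1, at differences of 0.04 to 0.05. For TKT this holds for the probe set used (log2 -0.46), while its others stood at -0.59 and -1.71. LAYN's were MPLKIP, STXBP5 and MON2, and HYAL2's were ZNF627, PLPP5 and WDR55, at differences of 0.01 to 0.02. Many genes were near in all 3 cases. Nearer than 0.2 were 1212 genes for HABP4, 4460 for LAYN and 4642 for HYAL2, against 19 for HMMR. The neighbours of these 3 genes are therefore not particular to them. From the lowest fold change, HABP4 ranked 691st, LAYN 2221st and HYAL2 2408th of 9887. When probe sets were fitted singly, the limit was the upper 50% of probe sets, a lower one with a mean signal of 63.9, which 10 of the 17 passed. Of these, 2 were called higher (both of HMMR) and 3 lower (2 of HABP4 and 1 of LAYN). The 5 not called were 1 each of HYAL2, HABP4 and HYAL3 and both of HAS3. In that fit 27.8% of all probe sets were called, 13.6% higher and 14.1% lower.

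Transcripts of other proteins that bind hyaluronan were mostly dim. Of 25 listed, 24 were measured and 6 tested, of which 4 rose and none fell (median log2 fold change 0.36). The shares over all tested genes were 21.0% higher and 20.6% lower. PTX3, a pentraxin that cross-links the hyaluronan matrix, CD44, VCAN and C1QBP rose by 1.59, 1.39, 0.48 and 0.24 on the log2 scale. CD44 has 13 probe sets and VCAN 5, and only the brightest of each was used, for VCAN an _x_at one. The largest rises among them, PTX3 and CD44, were known from earlier results of these arrays when the list was drawn up. HAPLN1, a link protein that ties versican to hyaluronan, stood at 0.09 on the log2 scale (SE 0.08, limma adjusted p = 0.35), with signals of 1101 ± 64 and 1176 ± 89 (SD, n = 3 each). TLR2 had -0.04 (SE 0.13, limma adjusted p = 0.82). The endocytic receptors LYVE1 and STAB2 were too dim, with group means of 9.88 to 17.2. TNFAIP6, which loads heavy chains onto hyaluronan, was dim as well, averaging 30.7 ± 1.8 without and 63.6 ± 30.6 with versican (SD, n = 3 each). The heavy chain genes ITIH1 to ITIH5 were likewise too dim to judge.

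**Figure D3:**
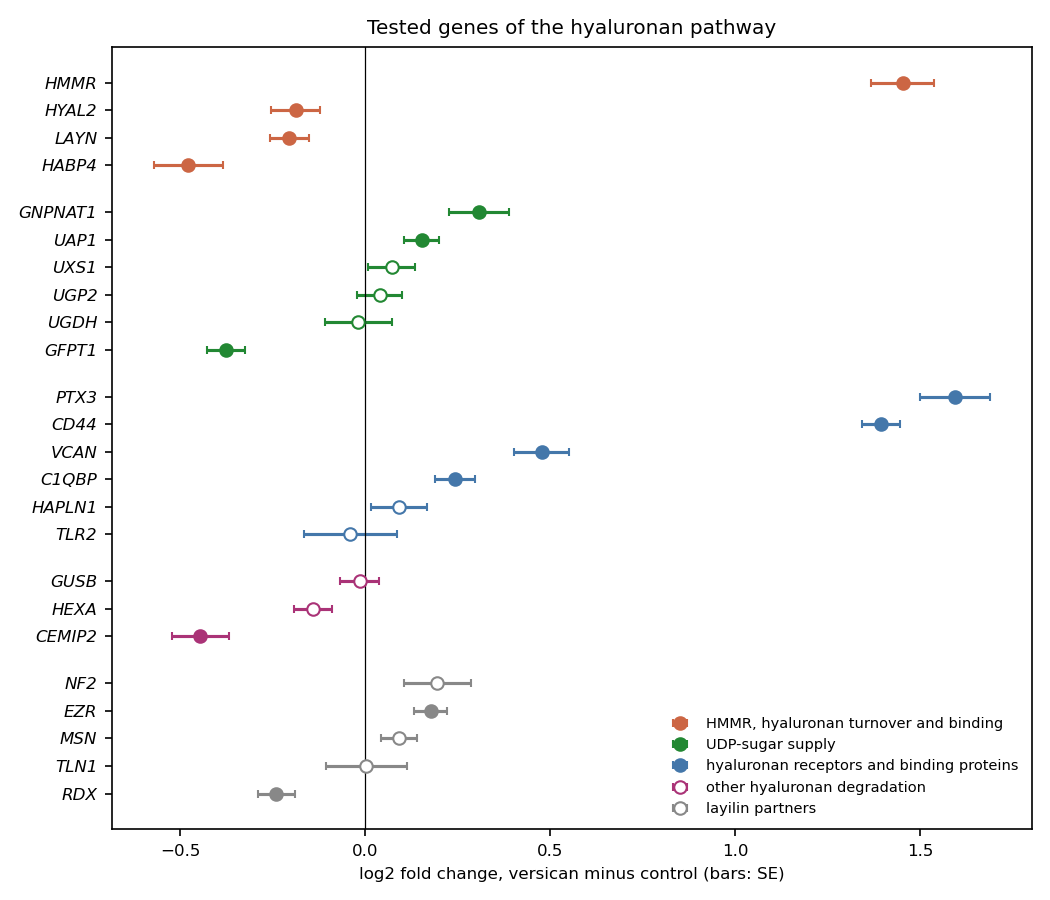
Log2 fold change (versican minus control, bars SE) of each tested gene, by role; filled points passed the limma adjusted p of 0.05. HMMR, PTX3 and CD44 lie above 1.39, and HABP4, CEMIP2 and GFPT1 are the lowest, at -0.48, -0.45 and -0.38.

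HMMR-AS1, the antisense transcript named at the HMMR locus, was dim, with 5.32, 26.0 and 37.4 in control and 39.4, 37.5 and 29.4 in versican arrays, and the groups overlapped.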

How the data were processed

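The authors deposited 1 table of intensity values, linear probe set signals that come from MAS5 per the submitters' processing notes. The sources used here do not give its version, target or detection calls. On each array the deposited values had a 2% trimmed mean of 500.1, and the median was 62.8 to 75.8. Probe sets were named through GEO's platform annotation (41091 with 1 symbol, 1801 with several, 11721 non-control probe sets unnamed here), with symbols updated through the gene identifier. No genome was used, and promoter sequences are those of RefSeq.

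Signals were taken to log2(signal + 16) and fitted in limma 3.58.1 (R 4.3.3), and fold changes on that scale understate the change of dim genes. For each of 19775 genes the probe set of highest mean was used, and the upper 50% (9887) were tested with lmFit and eBayes with an intensity trend, two-sided, Benjamini-Hochberg over all tested genes. Others were called too dim to judge. The fit was tested on simulated data. The number of arrays limits the precision. Genes named from a list were those with up to 4 of the smallest p, with any others chosen after their values were seen. The genes described and all lists were chosen with earlier results of these data known. Alternatives were pseudocounts of 1 and 64, other brightness limits, 3 normalizations, other variance models, other probe set choices, a block for the replicate number, and dropping each array in turn. Deviations from the group means correlated at 0.119, -0.019 and -0.090 between same-numbered arrays, and the numbers were therefore not treated as pairs.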

Additional observations from a re-analysis of the deposited data

How the results depend on the processing

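HMMR stayed called and higher in all 20 alternatives, with a log2 fold change of 1.38 to 1.53, the same range as when 1 array was left out. The versican minus control difference in HMMR's distance from the G2/M median stayed above 0 in all 15 alternatives that could give it. It was 0.53 to 0.66, also when 1 array was left out. HABP4 stayed called and lower in all 18 that tested it, LAYN in 18 of 20 and HYAL2 in 7 of 18, and no sign was reversed. Of the 10 genes chosen by name, 1, HMMR, was called higher in every alternative. The count of those 10 genes called lower was 3 in the main fit and 2 when any 1 array was left out. It was also 2 with no brightness limit, after cyclic loess and with the replicate block. With probe sets averaged or fitted separately it was 2 as well. It was 1 among the upper 25% of genes and 1 when _x_at and _s_at probe sets were left out, where fewer of these genes are tested, and 1 after median centring, where the cause was not tested. Of all genes, 2421 were called among the upper 25% (fewer genes tested), 7578 with every probe set as its own unit (more units tested), and 3322 to 3848 when 1 array was left out. With the replicate block, which the check of pairs did not call for, HMMR had an adjusted p of 1.9e-05 and a log2 fold change of 1.45, 3973 genes were called, and HYAL2 lost its call. Signals below the brightness limit restrict what can be said of HAS2, HAS3, HYAL3 and CEMIP.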
